A study of Arabidopsis thaliana with 9 samples.

Results

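The genes described here are transcription factor genes of Arabidopsis thaliana whose symbol is a family prefix followed by a number, measured in dry seeds. The rule named 20 prefixes and left out BZIP53, and a member had to be the single gene listed for its probe set (a group of short probes that gives 1 value per array). It found 33 genes of the 13350 named singly on the array, each with 1 probe set. They were 13 bZIP genes, 5 bHLH genes, 6 WRKY genes, 7 IAA genes, TCP15 and NAC014. For the other 14 prefixes, among them MYB, ERF and the heat stress factors HSFA and HSFB, no gene matched by its symbol, so none was a member. Genes that carry a family number only as a second name are given apart. The set is therefore mainly bZIP, IAA, WRKY and bHLH genes, and the IAA proteins bind DNA through partner factors rather than on their own.

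Seeds were harvested ripe and fresh and their RNA was hybridised to 9 Affymetrix arrays, 3 for each of 3 genotypes in the Landsberg erecta background, every replicate being a bulk of plants. The plants stood in randomized blocks, and the labels do not say whether a replicate number marks a block. Ler is the wild type, in which the labels call DOG1 expression low. The mutant dog1-1 is labelled as lacking DOG1 expression. NILDOG1 is a near isogenic line labelled NILDOG1-Cvi with strong DOG1 expression, and other Cvi sequence that may have come with the introgressed segment cannot be told apart from DOG1 in it. The labels name no treatment. DOG1 itself, a regulator of seed dormancy, had no singly named probe set, so its level gives no check of the genotypes. All levels are log2 signals, errors are standard deviations over n = 3 arrays unless a 95% interval is named, and levels of different genes cannot be compared with each other because each probe set has its own brightness.

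A mature seed stores the transcripts laid down while it ripened on the mother plant, and these are the messages at hand when water returns. bZIP factors bind DNA as dimers through a leucine zipper. Members of the group studied here serve maturation, zinc supply and the response to misfolded protein in the endoplasmic reticulum (ER). Most of the bHLH genes here belong to the circuit that adjusts iron uptake, WRKY factors are best known from defence and senescence, and Aux/IAA proteins hold auxin response factors in check until auxin causes their breakdown.

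Dry seed origin was checked with 2 of 18 listed markers that had a named probe set. PAP85, a seed storage protein gene, lay at 13.38 to 13.57 on all 9 arrays. It was higher in dog1-1 than in Ler without overlap but did not pass (change 0.08, limma adjusted p = 0.607). M17, a late embryogenesis gene, was at 11.58 ± 0.094 in Ler, 9.96 ± 0.28 in dog1-1 and 11.77 ± 0.29 in NILDOG1, and thus fell 3.07-fold in dog1-1 (adjusted p = 2.95e-05), a fall that passed in all 15 other settings. All 4 measured green tissue markers passed the threshold in dog1-1 against Ler, with 3 higher and 1 lower. Over all probe sets 8.33% passed as higher and 5.28% as lower. The mean level of these markers was 6.35 to 6.45 in dog1-1, 5.71 to 5.87 in Ler and 5.68 to 5.98 in NILDOG1. RCA, the activase of Rubisco, was at 5.82 ± 0.14 in dog1-1 against 4.3 ± 0.17 in Ler. The rise of LHCB4.2 and the fall of LHCB4.1, genes of a light-harvesting protein, were lost in 8 and 11 of 15 other settings. The 2 measured seed coat markers, BAN and DFR, were dim and did not pass. DFR was at 2.81 ± 0.15 in Ler and 2.57 ± 0.097 in dog1-1, lower without overlap (limma adjusted p = 0.166). BAN was at 2.84 ± 0.10 in Ler and 2.83 ± 0.21 in dog1-1. Of 3 endosperm markers IKU2 passed as lower in dog1-1 (log2 change -0.42, limma adjusted p = 0.0153). That call was lost in 3 of 15 other settings (adjusted p = 0.052 to 0.738). IKU1 was higher in dog1-1 without overlap but did not pass (change 0.35, adjusted p = 0.179), and AGL62 was at background in all 3 genotypes. Mean levels of the endosperm markers were 3.34 to 3.55 in dog1-1 and 3.47 to 3.58 in Ler. The hybridization controls, added in fixed amounts, were lower in dog1-1 (8.81 to 9.14) than in Ler (9.19 to 9.57), with NILDOG1 at 9.12 to 9.27. The part of these shifts in the changes below was not tested, and in seeds measured whole, fewer cells of a type and less RNA per cell cannot be told apart.

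Many of the 33 genes gave little signal. The 3 TrpnX control probe sets, made for a bacterial transcript, read 1.82 to 2.56, and a genotype mean up to the top of that span counted as background. By that measure 11 genes were at background in all 3 genotypes and 14 in at least 1, where 3925 of all 22746 probe sets tested were at background in all 3. Of the 13 bZIP genes 8 were at background throughout: BZIP24, bZIP42, bZIP43, bZIP48, bZIP52, bZIP58, BZIP34 and BZIP61. The others were BHLH101, IAA31 and TCP15. That limit is rough, because each probe set has its own brightness. An unchanged value of these 11 genes cannot be read as an unchanged gene. At the other end BZIP28 (8.25 ± 0.24 in Ler), bHLH121 (7.85 ± 0.064), BZIP60 (7.66 ± 0.19), bHLH104 (7.25 ± 0.20), NAC014 (6.67 ± 0.11) and BZIP17 (6.60 ± 0.28) stood well above it.

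**Figure D1:**
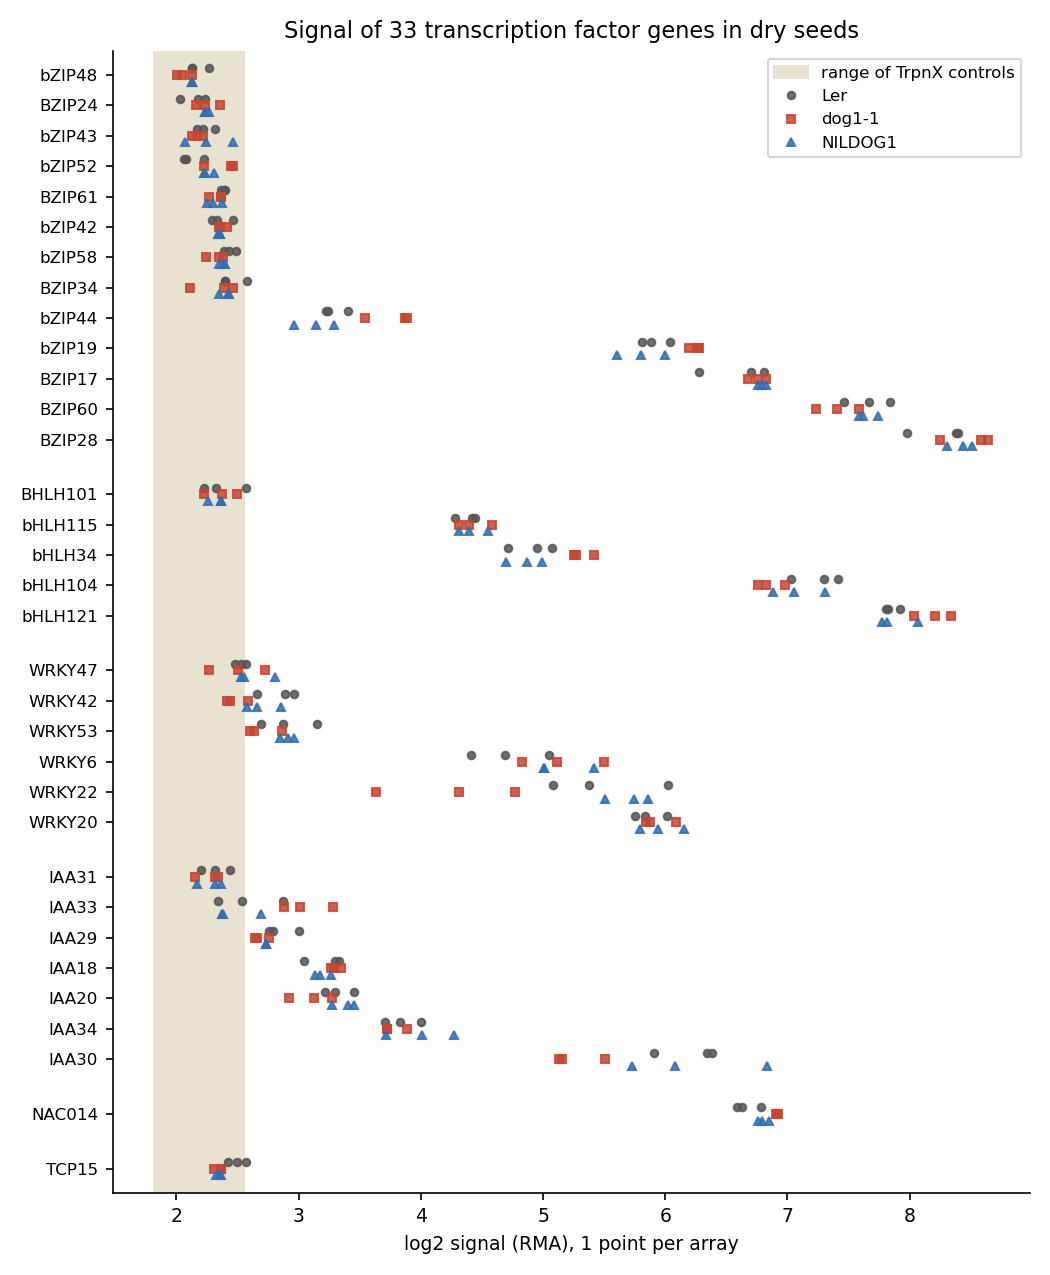
Signal of each of the 33 genes on the 9 arrays (log2, x axis), grouped by family, with 1 point per array and the shaded band for the range of the TrpnX controls (1.82 to 2.56). Nearly all points of 8 of the 13 bZIP genes lie inside the band, and dog1-1 points of WRKY22 and IAA30 lie to the left of those of Ler and NILDOG1.

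The comparison of dog1-1 with Ler asks which of these genes change in seeds that lack DOG1. WRKY22 and IAA30 were lower in dog1-1, and bZIP44 and bHLH34 were higher. These 4 of 33 genes (12.1%) passed an adjusted p of 0.05 with limma, fitted and adjusted over all 22746 probe sets, of which 13.6% passed. The share of members called was thus near that of the array, as was the median change (-0.02 against -0.04). These sets had unlike floors, with 11 of 33 members but 3925 of 22746 probe sets at background in all 3 genotypes. All 4 calls were among the 22 members above background in at least 1 genotype. Without dim probe sets 4 of 24 members passed, against 15.8% of the probe sets kept. Higher calls made up 6.06% of the members and 8.33% of all probe sets, lower calls 6.06% and 5.28%. Without adjustment 12 members had a p under 0.05 (36.4%, against 25.6% of all probe sets). bZIP52, counted there, was at background in all 3 genotypes. For 12 members the arrays of dog1-1 and Ler did not overlap (36.4% against 26.9%), 6 of them higher and 6 lower in dog1-1. Among those lower, bZIP58 and TCP15 were at background in all 3 genotypes and WRKY42 in dog1-1. Each of the families bZIP, bHLH, WRKY and IAA held 1 of the 4 genes called.

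WRKY22 (AT4G01250), which acts downstream of a MAP kinase cascade in defence and in senescence in the dark, had the largest change of the 33. Its Ler arrays read 5.08, 6.02 and 5.37, its dog1-1 arrays 3.63, 4.77 and 4.31, and its NILDOG1 arrays 5.86, 5.75 and 5.50. Every dog1-1 array was below every array of the other genotypes, and Ler and NILDOG1 overlapped. The mean fell from 5.49 ± 0.48 to 4.24 ± 0.57, 2.38-fold (95% interval of the log2 change -1.85 to -0.66, adjusted p = 0.00821). It was also the gene with the largest spread between replicates in Ler and dog1-1, and its dog1-1 level stayed above background. Of all members it was the single one called with a change of at least 2-fold in this comparison (3.03% of members, against 3.45% of all probe sets).

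IAA30 (AT3G62100) encodes an Aux/IAA protein without the sequence that auxin uses to trigger breakdown, and is known as a target of the embryo regulators LEC2 and AGL15. Its arrays read 6.34, 6.38 and 5.91 in Ler, 5.15, 5.51 and 5.13 in dog1-1, and 6.08, 5.73 and 6.83 in NILDOG1. The dog1-1 arrays lay below all others. The level fell from 6.21 ± 0.27 to 5.26 ± 0.21, 1.93-fold (interval -1.46 to -0.43, adjusted p = 0.0182). The call was lost without Ler replicate 1 or 2 or dog1-1 replicate 1 or 3 (adjusted p = 0.0536 to 0.0786 over these; 0.00247 to 0.0786 over all alternatives).

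bZIP44 (AT1G75390) belongs to the same small bZIP group as BZIP53 and is known to promote germination by switching on a cell wall mannanase gene. It read 3.4, 3.22 and 3.24 in Ler, 3.54, 3.87 and 3.89 in dog1-1, and 2.97, 3.14 and 3.29 in NILDOG1. All dog1-1 arrays were above the others. The rise from 3.29 ± 0.098 to 3.77 ± 0.19 was 1.39-fold (interval 0.21 to 0.75, adjusted p = 0.0209). It did not pass without Ler replicate 2 or 3 or dog1-1 replicate 2 or 3 (adjusted p = 0.0683 to 0.0959, and 0.00118 to 0.0959 over all alternatives).

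bHLH34 (AT3G23210), an activator of iron deficiency genes, read 5.08, 4.95 and 4.71 in Ler, 5.27, 5.42 and 5.25 in dog1-1, and 4.99, 4.70 and 4.87 in NILDOG1. The dog1-1 arrays were again above all others. The rise from 4.91 ± 0.19 to 5.31 ± 0.093 was 1.32-fold (interval 0.14 to 0.66) and passed narrowly (adjusted p = 0.0436). It stayed higher in all 15 other settings but missed the threshold in 11 (adjusted p = 0.0522 to 0.159 in these), among them those without Ler replicate 2 or 3, without any 1 dog1-1 array, and without NILDOG1 replicate 1 or 3. With the replicate number as a block its adjusted p was 0.0608. Just outside the threshold stood WRKY42, a regulator of phosphate supply (2.84 ± 0.16 in Ler and 2.48 ± 0.092, at background, in dog1-1; adjusted p = 0.0547), and IAA33 (2.58 ± 0.27 and 3.06 ± 0.21; adjusted p = 0.0616, and 0.0497 with the replicate block).

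**Figure D2:**
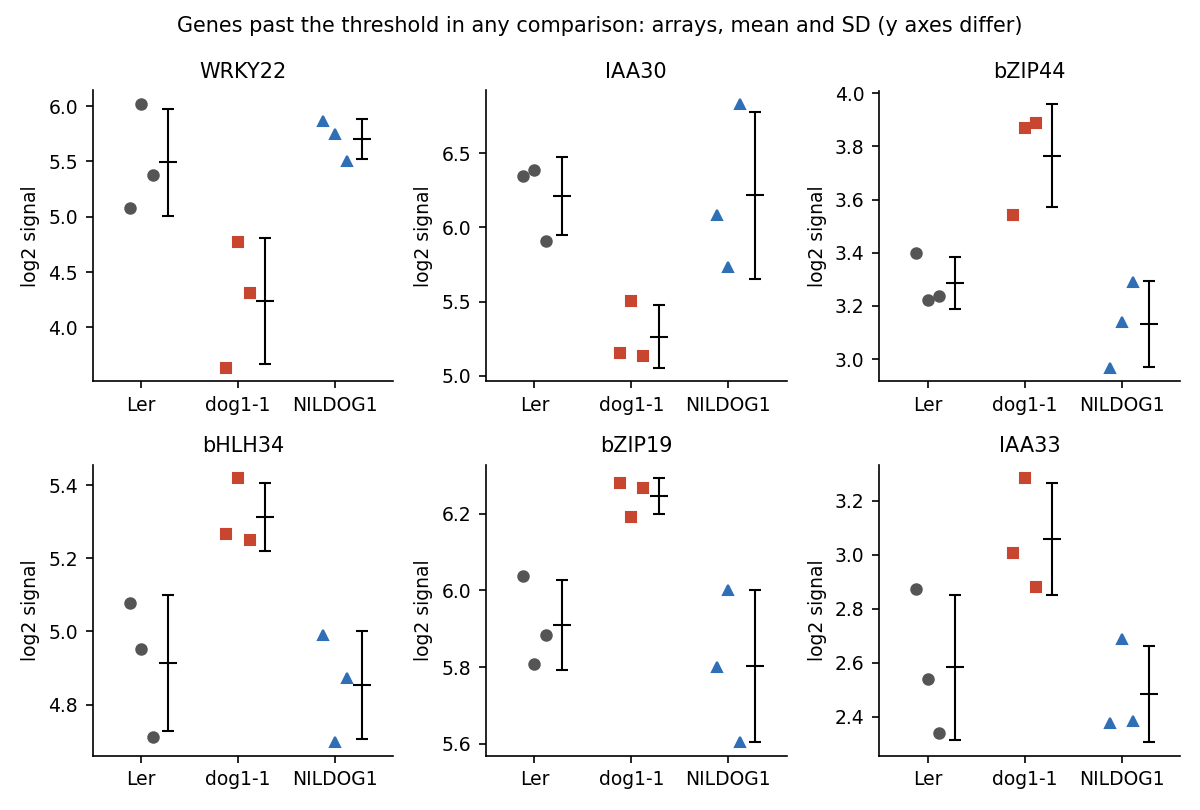
Log2 signal of the 6 genes that passed the threshold in any comparison, by genotype, with 1 point per array in replicate order and a bar for mean ± SD (n = 3); y axes differ and do not start at 0. WRKY22 and IAA30 are lowest in dog1-1 (means 4.24 and 5.26), and bZIP44, bHLH34, bZIP19 and IAA33 highest there (means 3.77, 5.31, 6.25 and 3.06).

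Of the 5 bHLH genes bHLH34 alone passed. bHLH34, bHLH104 and bHLH115 are close relatives that act with ILR3, and bHLH121 works beside them. bHLH104 read 7.42, 7.03 and 7.30 in Ler and 6.76, 6.98 and 6.82 in dog1-1, without overlap, a change of -0.40 (interval -0.69 to -0.10, adjusted p = 0.0748). Centred on the hybridization controls, that change was -0.04. bHLH121 read 7.92, 7.81 and 7.82 in Ler and 8.34, 8.03 and 8.21 in dog1-1, also without overlap, a change of 0.34 (interval 0.10 to 0.59, adjusted p = 0.068). Neither passed, and the arrays of bHLH115 overlapped at 4.28 to 4.44 in Ler and 4.31 to 4.58 in dog1-1 (interval -0.18 to 0.28). BHLH101, a gene switched on in iron starved roots, was at background (2.37 ± 0.18 in Ler).

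Among further genes of iron supply, a list drawn up once the members were known, 2 of 59 had a named probe set. PYE (AT3G47640), a bHLH repressor that partners ILR3, bHLH104 and bHLH115, read 7.37, 7.19 and 6.73 in Ler and 5.87, 6.18 and 5.84 in dog1-1. It fell from 7.09 ± 0.33 to 5.96 ± 0.19, 2.19-fold (adjusted p = 6.81e-04), and was at 6.97 ± 0.23 in NILDOG1. ILR3 (AT5G54680, also bHLH105) was at 8.84 ± 0.070 in Ler, 8.96 ± 0.12 in dog1-1 and 8.82 ± 0.097 in NILDOG1, and did not pass (adjusted p = 0.501). A probe set named FRO1 was left out of the list because its locus, AT5G67590, is not the ferric reductase of that name.

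The bZIP genes that carry the ER stress response were clearly expressed and did not pass. BZIP17 and BZIP28 are held in the ER membrane and freed by proteases such as S1P, and BZIP60 is activated when IRE1 splices its transcript, so the level of their messages is not their activity. BZIP28 read 7.98, 8.40 and 8.38 in Ler and 8.64, 8.25 and 8.58 in dog1-1 (interval -0.06 to 0.54). BZIP17 was at 6.60 ± 0.28 and 6.75 ± 0.074 (interval -0.12 to 0.43). BZIP60 was at 7.66 ± 0.19 and 7.41 ± 0.18 (interval -0.52 to 0.02). All of these intervals exclude a 2-fold change at the centre set by the deposited normalization, and the arrays of dog1-1 and Ler overlapped for each of the 3 genes.

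Of 59 other genes of the ER stress response, listed once the members were known, 6 had a named probe set (7 probe sets, of which 1 for DER1 was at background). The median change in dog1-1 was 0.18, with 3 of the 7 probe sets passing as higher and 0 as lower; over all probe sets the median was -0.04, with 8.33% higher and 5.28% lower. CRT1b, a calreticulin chaperone gene, rose from 4.84 ± 0.20 to 5.46 ± 0.083 (1.54-fold, adjusted p = 0.00197). OS9, which recognises misfolded glycoproteins, rose from 4.37 ± 0.12 to 4.97 ± 0.037 (1.52-fold, adjusted p = 0.00498). DER2.2, a derlin gene of ER protein disposal, rose from 5.78 ± 0.27 to 6.49 ± 0.33 (1.63-fold, adjusted p = 0.0147), though not without Ler replicate 1 or 3 or dog1-1 replicate 3 (adjusted p = 0.0555 to 0.0652). DER2.1 (adjusted p = 0.441), S1P (adjusted p = 0.653) and the brighter DER1 probe set (adjusted p = 0.946) did not pass. None of the 7 passed in NILDOG1 against Ler.

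bZIP19 (AT4G35040), which switches on zinc transporters under zinc shortage, read 6.04, 5.81 and 5.88 in Ler, 6.28, 6.19 and 6.27 in dog1-1, and 5.80, 6.0 and 5.60 in NILDOG1. The dog1-1 arrays were above all others. Against Ler the change of 0.34 did not pass (adjusted p = 0.0754), but NILDOG1 was 1.36-fold below dog1-1 (adjusted p = 0.022). NAC014, a NAC domain gene, gave nearly the same value on every dog1-1 array (6.91 ± 0.0073) against 6.67 ± 0.11 in Ler, without overlap, and did not pass (change 0.25, adjusted p = 0.0995). DOG1 lies on chromosome 5, and so do 3 members, BHLH101, bZIP43 and IAA33, of which none passed between NILDOG1 and Ler. bZIP43 gave only background signal (2.23 ± 0.075 in Ler and 2.26 ± 0.19 in NILDOG1).

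Apart from WRKY22, no WRKY gene passed. WRKY6, which takes part in phosphate and abscisic acid responses, read 4.41, 5.05 and 4.69 in Ler, 5.50, 5.12 and 4.82 in dog1-1, and 5.42, 5.01 and 5.01 in NILDOG1, with overlap in both comparisons. Its change was 0.43 in each line (adjusted p = 0.188 in dog1-1 and 0.837 in NILDOG1), and both share the same Ler arrays. WRKY20 was at 5.87 ± 0.14 in Ler and 5.93 ± 0.13 in dog1-1. WRKY53, a senescence regulator, was dim at 2.90 ± 0.23 and 2.7 ± 0.14, and WRKY47 was at background in both genotypes (2.52 and 2.50). Of 37 genes listed for defence signalling 2 were measured, and both PDF1.2 (3.11 ± 0.12 in Ler, 2.98 ± 0.037 in dog1-1) and CML37, at background, did not pass.

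Of the other IAA genes none passed against Ler. IAA34 was at 3.85 ± 0.15 in Ler and 3.78 ± 0.096 in dog1-1, IAA20 at 3.32 ± 0.12 and 3.1 ± 0.18, and IAA18 at 3.23 ± 0.16 and 3.3 ± 0.041. IAA20 and IAA31 are close relatives of IAA30. IAA20 had an interval of -0.46 to 0.03 and IAA31 was at background, so a fall like that of IAA30 cannot be judged for IAA31. IAA29, a gene that responds to shade and warmth, was at 2.85 ± 0.13 in Ler and 2.69 ± 0.062 in dog1-1. Its 3 NILDOG1 arrays held 1 identical value of 2.73, so the standard deviation there is 0 and does not measure the spread between plants.

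Of 60 genes listed for the auxin pathway 7 were measured, and in dog1-1 1 of them passed, as higher (13.6% of all probe sets passed); the median change was -0.06, against -0.04 over all probe sets. GH3.1, of the family that joins auxin to amino acids, rose from 3.39 ± 0.20 to 3.98 ± 0.23 (1.51-fold, adjusted p = 0.0163), but not without Ler replicate 3 or dog1-1 replicate 2 or 3 (adjusted p = 0.056 to 0.0727). YUC2, an enzyme of auxin synthesis, was at 4.14 ± 0.15 in Ler and 3.75 ± 0.23 in dog1-1 (adjusted p = 0.0915). YUC6 was at 3.52 ± 0.20 and 3.46 ± 0.074 and did not pass. YUC4 and GH3.17 were at background in dog1-1 and GH3.3 and GH3.9 in both genotypes; none of these 4 passed, and their measured changes are not exact.

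**Figure D3:**
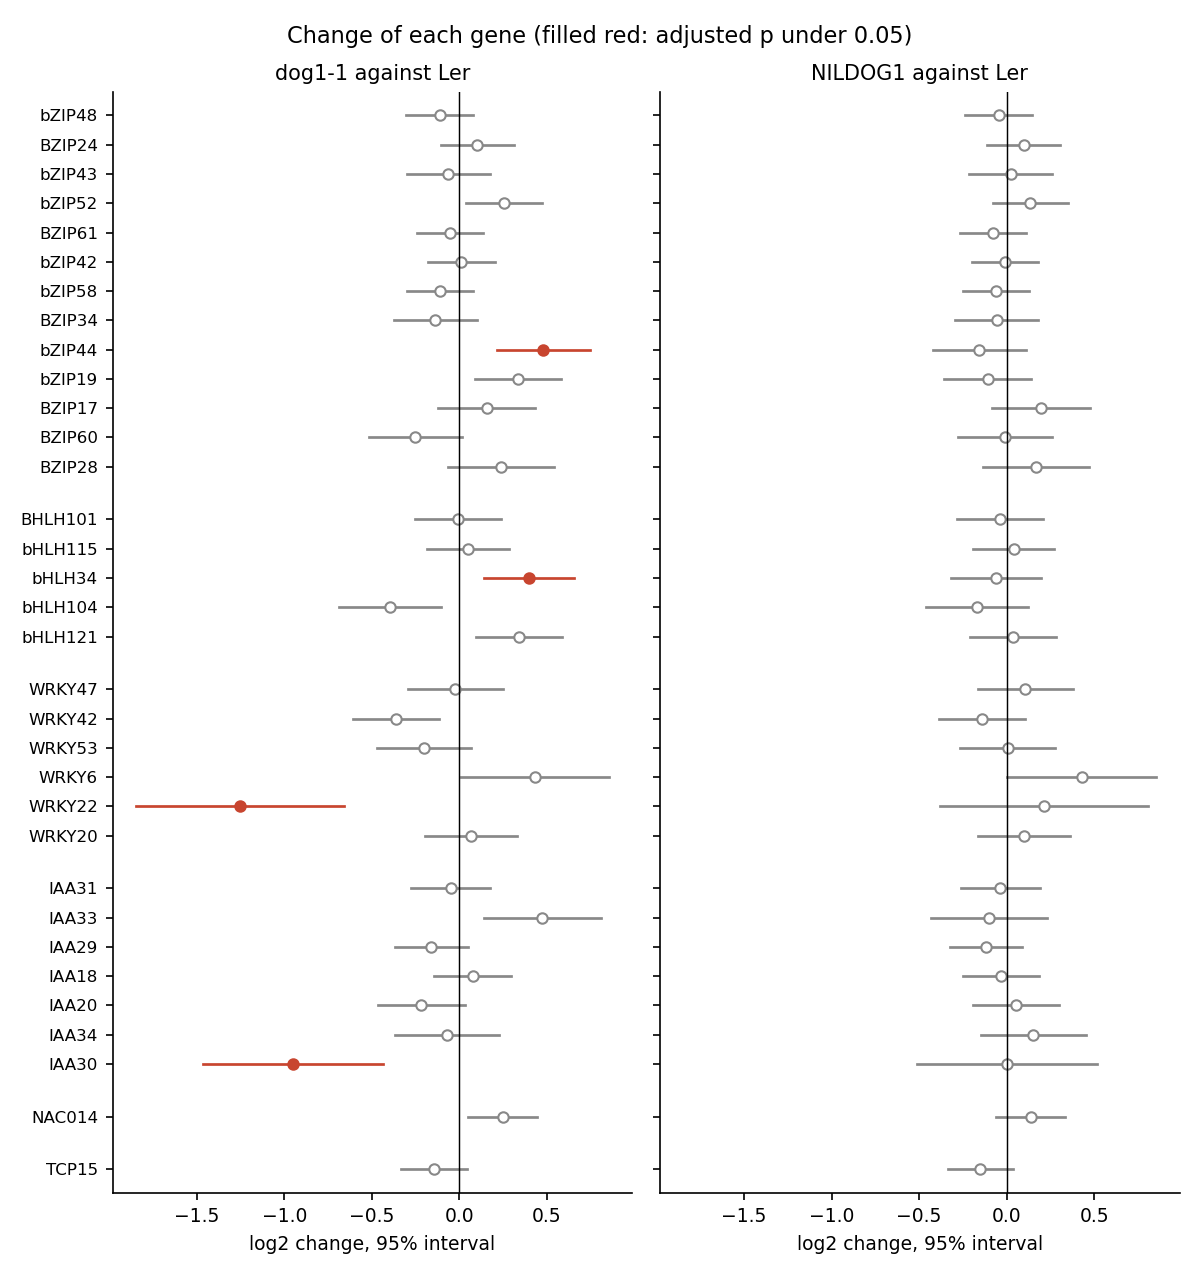
Log2 change of each of the 33 genes against Ler (x axis) with its 95% interval, for dog1-1 (left) and NILDOG1 (right); filled red points passed an adjusted p of 0.05. The 4 filled points, WRKY22, IAA30, bZIP44 and bHLH34, are all in dog1-1, and all NILDOG1 points are open.

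Some transcription factor genes carry a family number only as a second name. There were 12 such genes, found after the data were seen, and of these 1 passed in dog1-1 (8.33%, against 13.6% of all probe sets). This was EEL (AT2G41070, also bZIP12), a bZIP factor of late maturation, which read 7.61, 7.50 and 7.70 in Ler, 8.61, 8.30 and 8.46 in dog1-1, and 7.42, 7.70 and 7.59 in NILDOG1. ZAP1 (WRKY1), AT1G06070 (bZIP69), AT2G21230 (bZIP30) and the others did not pass. In the list of seed maturation factors 3 of 43 genes were measured. In dog1-1 2 passed as higher and 1 as lower, where 8.33% and 5.28% of all probe sets did. EEL and SPT, a bHLH repressor of germination, rose 1.81-fold and 1.85-fold (limma adjusted p = 2.56e-04 and 6.87e-04). BZIP53, a bZIP activator of maturation genes, fell 1.56-fold (adjusted p = 0.00209). The fall of BZIP53 did not pass when arrays were centred on the hybridization controls (change -0.29).

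**Figure D4:**
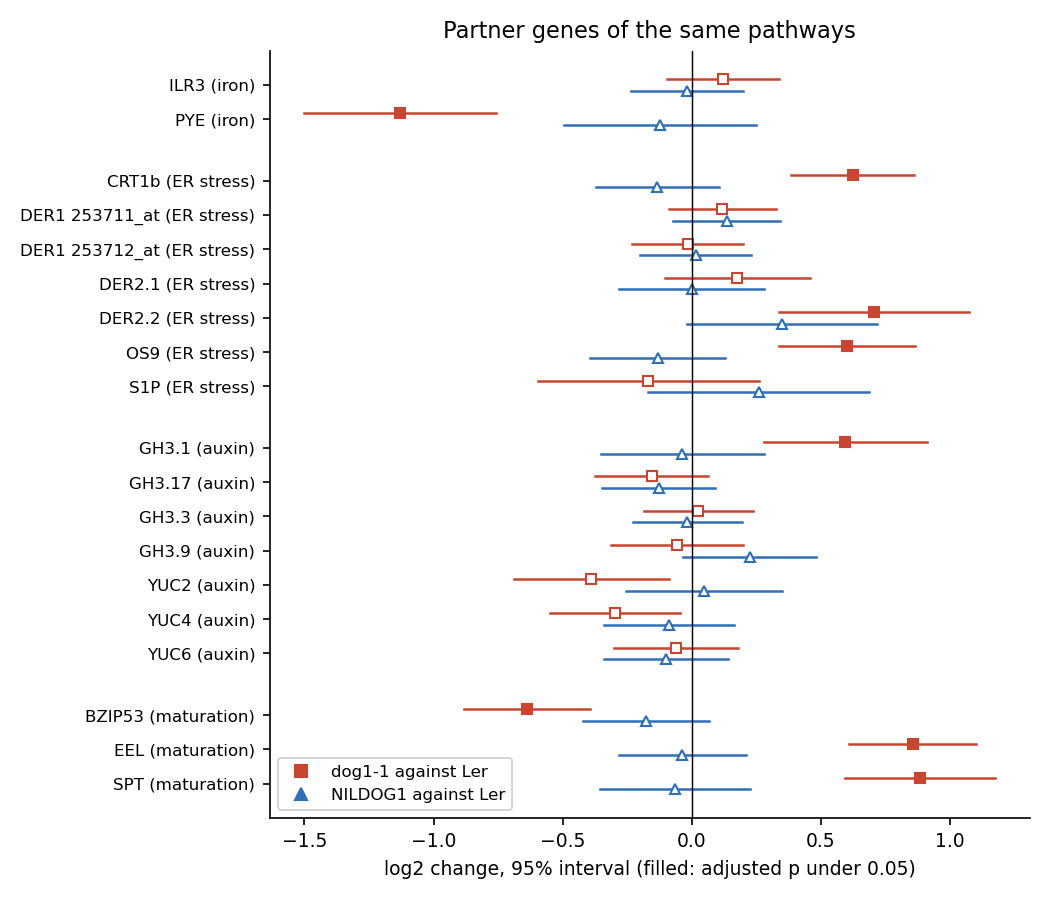
Log2 change against Ler with its 95% interval for measured genes of iron supply, the ER stress response, the auxin pathway and seed maturation, in dog1-1 (squares) and NILDOG1 (triangles); filled symbols passed an adjusted p of 0.05. PYE (-1.13) and BZIP53 (-0.64) lie to the left and SPT (0.88), EEL (0.86), DER2.2 (0.70), CRT1b (0.62), OS9 (0.60) and GH3.1 (0.60) to the right in dog1-1, and no NILDOG1 symbol is filled; YUC4, GH3.17, GH3.3, GH3.9 and 1 DER1 probe set were at background in at least 1 genotype.

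NILDOG1 against Ler compares a stronger DOG1 allele with the weak one of the wild type. With limma 0 of 33 members passed, where 0.545% of all probe sets did (0.321% higher, 0.224% lower, and 0.312% by at least 2-fold). Without adjustment 1 member, WRKY6, had an unadjusted p under 0.05 (3.03%, against 5.9% of all probe sets). The arrays of NILDOG1 and Ler did not overlap for 2 members (6.06% against 9.32%): IAA29 and TCP15, both lower in NILDOG1. TCP15, which takes part in embryo growth driven by gibberellin at germination, was at background in both. For 22 members above background in at least 1 genotype the 95% intervals all lay within a 2-fold change in either direction, and those of 19 within a log2 change of 0.5. The exceptions to the narrower limit were WRKY6 (0.0046 to 0.85), WRKY22 (-0.38 to 0.81) and IAA30 (-0.51 to 0.52). IAA30 had the widest spread of any member in NILDOG1 (6.22 ± 0.56), and bZIP44 and bHLH34 were at 3.13 ± 0.16 and 4.85 ± 0.15.

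The last comparison, NILDOG1 against dog1-1, spans the widest gap in labelled DOG1 expression. It uses the dog1-1 arrays of the first comparison again, so its calls are not a separate line of evidence. WRKY22 was 2.76-fold and IAA30 1.94-fold higher in NILDOG1, and bZIP44, bHLH34, bZIP19 and IAA33 were lower. These were 6 of 33 members, where 12.5% of all probe sets passed; 2 were higher (6.06% against 4.94%) and 4 lower (12.1% against 7.52%). WRKY22 alone passed with at least a 2-fold change (3.03% against 3.43%). For 7 members the arrays did not overlap (21.2% against 27%): these 6 and NAC014.

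WRKY22 had an interval of 0.87 to 2.06 here (adjusted p = 0.00307) and bZIP44 one of -0.90 to -0.37 (1.55-fold lower, adjusted p = 0.00392). Both passed in all 15 other settings. IAA30 (interval 0.44 to 1.47, adjusted p = 0.0186) passed in 13, bHLH34 (1.38-fold lower, adjusted p = 0.0228) in 10, and bZIP19 (interval -0.69 to -0.20) in 11 of 15. IAA33 (AT5G57420) encodes an Aux/IAA protein that lacks parts common to the family. It read 2.87, 2.54 and 2.34 in Ler, 3.01, 3.28 and 2.88 in dog1-1, and 2.37, 2.69 and 2.38 in NILDOG1. It was at background in NILDOG1 (2.48 ± 0.18). The measured log2 change was -0.57 (interval -0.91 to -0.24, limma adjusted p = 0.027), and this passed in 12 of 15 settings. The dog1-1 mean stood 1.42-fold above the top of the background span, a value given without an error. IAA30 was lost without dog1-1 replicate 1 or 3 (adjusted p = 0.056 and 0.0793), and bZIP19 without either of these or NILDOG1 replicate 1 or 3 (0.0574 to 0.0918). bHLH34 was lost without dog1-1 replicate 2 or 3 or NILDOG1 replicate 2 or 3 and after a second quantile normalization (0.0514 to 0.0977), and IAA33 without dog1-1 replicate 2 or NILDOG1 replicate 1 or 3 (0.102 to 0.112).

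A pair of gene lists belongs to prefixes that had no member. Of 31 genes tied to heat stress factors 2 were measured, and both passed as lower in dog1-1, as did 5.28% of all probe sets. The small heat shock protein gene ATHSP22.0 fell 5.45-fold and HSA32 1.64-fold, the latter not passing when centred on the hybridization controls (change -0.36). Neither passed with limma in NILDOG1 against Ler. ATHSP22.0 was higher there without overlap (log2 change 0.90, adjusted p = 0.348), and this rise passed in 3 of 15 other settings. Of 42 ethylene pathway genes 3 were measured and 0 passed with limma in any comparison, with 1 at an unadjusted p under 0.05 in dog1-1; EIN3 was at 9.34 ± 0.11 in Ler and 9.58 ± 0.16 in dog1-1.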

How the data were processed

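The authors deposited 1 log2 signal per probe set and array; per the submitters' processing notes these came from RMA (its version: not given in the sources used here). That they are log2 was judged from their range. Of 22810 probe sets, 64 Affymetrix controls were left out, and 22746 were tested in R 4.3.3 with limma 3.58.1 (lmFit, eBayes) in a single model with the 9 arrays and a mean per genotype, which leaves 6 degrees of freedom. P-values were adjusted by Benjamini-Hochberg across the whole table and called under 0.05. Genes were named from the platform annotation (13513 probe sets with 1 gene, 503 with several, 8730 not listed) and matched by gene ID to the RefSeq gene table; all 33 members had a locus. Coordinates are not printed because the build of the annotation is not named. The number of arrays limits the precision, and no detection calls were used here.

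Replicates are separate bulks of plants. Arrays with the same replicate number had correlations of -0.23 to 0.03 after removal of genotype means, so the main model does not pair arrays by number; the plants were grown in randomized blocks per the labels' protocols, and a model with the number as a block is given where it changes a call. The members and lists were chosen with earlier results of these data known, and the lists for iron supply and the ER stress response after the members were known. Genes named were, in each comparison, members past the threshold; the brightest member of each family; the members beside the threshold; and up to 2 list genes in each direction. All other genes were named after their values were seen. Alternatives left out each array, fitted 2 genotypes alone, used the replicate number as a block, left out dim probe sets, centred on the hybridization controls, normalized again or changed the variance model. The pipeline was tested on simulated data. That check required only the recovery of changes larger than any called among the members, so it does not show how often changes of their size are found.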

Additional observations from a re-analysis of the deposited data

How the results depend on the processing

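The counts of members that passed were 4 in dog1-1 against Ler, 0 in NILDOG1 against Ler and 6 in NILDOG1 against dog1-1. Leaving out 1 array at a time gave 1 to 4, 0 to 0 and 3 to 6. The lowest were 1 without dog1-1 replicate 3 and 2 without dog1-1 replicate 1 or Ler replicate 3 in the first comparison, and 3 without dog1-1 replicate 3 or NILDOG1 replicate 3 in the last. Centring each array on the hybridization controls moved the median of all probe sets in dog1-1 against Ler from -0.04 to 0.31 and the count to 11 (9 higher and 2 lower, against 2 and 2), with 22.7% of all probe sets called; the added genes were bHLH121, BZIP28, bZIP19, bZIP52, IAA33, NAC014 and WRKY6, while WRKY22 (-0.90) and IAA30 (-0.60) still passed. It moved the median to 0.17 in NILDOG1 against Ler and to -0.15 in NILDOG1 against dog1-1, where the counts were 0 and 6. So the balance of rises and falls depends on the centre used. The controls themselves ranged from 9.19 to 9.57 among the Ler arrays, so their centre carries its own spread. Which centre is nearer to the amount of RNA in the seeds was not tested. With the replicate number as a block the counts were 4, 0 and 6; in the first comparison bHLH34 was then lost (adjusted p = 0.0608) and IAA33 gained (0.0497). A second quantile normalization gave 4, 0 and 5, the fit of 2 genotypes 3, 0 and 6, a trended robust prior 5, 0 and 6, and without dim probe sets (24 members kept) 4, 0 and 6. Adding the 12 genes by second name, an alternative chosen after seeing the data, gave 5, 0 and 7. Reading the rule more widely added 0 genes, and no member was of another kind of gene, so those counts are the same by construction. No called direction reversed under any alternative run. The search for promoter motifs was not run. With 3 arrays a group, changes as small as that of bHLH34 lie at the limit of detection. The cause of these shifts was not tested.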
